A study of Mus musculus with 6 samples.

Results

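The SLAM family genes examined here were 8 of the 21233 genes in the deposited tables, taken by symbol: the receptor genes Slamf1, Slamf6, Slamf7, Ly9, Cd48, Cd84 and Cd244a, and Sh2d1a, which encodes the adaptor protein SAP. All 8 symbols were found. RNA was sequenced from mouse Th9 cells, CD4 T helper cells known for secreting interleukin 9, in 3 libraries from cells treated with sorafenib (Sora), a drug that blocks RAF kinases and receptors such as those for VEGF and PDGF, and 3 libraries from cells not given the drug (Ctrl). The sources used here give no dose, exposure time, mouse strain, age or culture conditions, and the 2 groups share no other agent or allele that the labels name. The labels number the replicates without saying whether they came from different cultures or mice, and the p-values below therefore rest on a spread between libraries that may be technical.

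SLAM receptors are immunoglobulin-type surface proteins of blood cells. Most of them bind the same receptor on a neighbouring cell, while CD48 and CD244 bind each other and mouse CD48 also binds CD2. The tails of most of these receptors carry tyrosine motifs that recruit SAP, which brings in the kinase FYN. Without SAP the same motifs can recruit inhibitory phosphatases. The family is best known in T cells for holding T and B cells together during help to antibody responses and for the development of natural killer T cells.

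Sora libraries had more Slamf6 and Cd84 transcript and less Slamf7 and Slamf1 transcript than Ctrl libraries. Slamf6 was 3.61-fold higher and Cd84 1.34-fold higher, while Slamf7 was 2.87-fold lower and Slamf1 1.58-fold lower. Ly9, Cd48 and Sh2d1a did not pass the test, and Cd244a was close to absent in both groups. So 4 of the 7 members tested were called, 2 in each direction, where 17.9% of all 13255 tested genes were called in either direction, 8.51% as higher and 9.43% as lower. In the same 4 members the Sora and Ctrl libraries did not overlap, against 36.3% of all tested genes. A gene was called where its adjusted p was below 0.05 in the quasi-likelihood test of edgeR, with Benjamini-Hochberg adjustment across the genes tested. With libraries scaled by total counts alone, 1496 genes were called higher and 826 lower, against 1128 and 1250 with the scaling used here. The 7 tested members had at least 139 counts in every library, so none was tested only because 1 group was high.

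The receptor genes form a cluster on mouse chromosome 1, and the stretches just upstream of the 4 called genes are shown because these neighbouring genes changed in opposite directions. The sequences are the 250 bases before the transcript start in RefSeq (GRCm38.p6, on the gene's strand, 5′ to 3′), with matches to the AP-1 motif TGANTCA in capitals. Their places in GRCm38.p6 are chr1:171917212-171917461, plus strand for Slamf6, chr1:171839447-171839696, plus strand for Cd84, chr1:171649000-171649249, minus strand for Slamf7 and chr1:171766882-171767131, plus strand for Slamf1.
Slamf6: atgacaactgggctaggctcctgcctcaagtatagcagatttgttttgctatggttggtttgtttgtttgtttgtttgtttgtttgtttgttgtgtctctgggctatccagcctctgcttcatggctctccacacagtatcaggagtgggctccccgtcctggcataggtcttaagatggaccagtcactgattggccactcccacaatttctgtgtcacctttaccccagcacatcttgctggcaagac
Cd84: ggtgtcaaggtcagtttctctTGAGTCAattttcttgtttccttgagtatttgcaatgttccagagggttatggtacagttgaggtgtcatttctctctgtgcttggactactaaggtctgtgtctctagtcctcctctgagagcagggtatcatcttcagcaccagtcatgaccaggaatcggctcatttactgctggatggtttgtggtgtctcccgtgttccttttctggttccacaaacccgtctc
Slamf7: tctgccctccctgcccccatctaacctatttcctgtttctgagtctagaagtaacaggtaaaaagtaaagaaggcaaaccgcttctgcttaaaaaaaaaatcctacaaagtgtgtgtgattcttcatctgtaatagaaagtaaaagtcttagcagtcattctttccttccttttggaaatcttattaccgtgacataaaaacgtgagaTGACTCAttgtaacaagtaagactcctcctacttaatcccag
Slamf1: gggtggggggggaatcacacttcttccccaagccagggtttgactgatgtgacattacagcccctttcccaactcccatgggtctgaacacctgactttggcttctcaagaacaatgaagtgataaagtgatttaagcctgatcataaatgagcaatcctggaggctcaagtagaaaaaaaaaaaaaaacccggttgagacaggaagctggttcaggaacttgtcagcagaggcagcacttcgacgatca
Both strands were searched for the AP-1 motif, which was in 6.75% of the 32851 promoter windows of this length. The Slamf7 window held 1 match, starting 42 bases before the transcript start, and the Cd84 window 1 match, starting 229 bases before it. The Slamf6 and Slamf1 windows held none, so a match stood beside 1 gene that fell and 1 that rose. Of the members with a sequence that were not called or not tested, Cd244a, close to absent in both groups, also had 1 AP-1 match. It started 122 bases before the transcript start, and the Cd48 window held 0. The STAT motif TTCNNNGAA, found in 7.02% of windows, and the TATA motif TATAAA, found in 12.4%, matched in none of the 4. The RUNX motif TGTGGT, found in 14% of windows, matched once in the Cd84 window, 45 bases before the start, and in none of the other 3. It also matched once in the window of Cd48, which was not called, 76 bases before the start. The Slamf6 window has 8 copies in a row of GTTT, a run at least as long as which was in 2 of the 32851 windows on the gene's strand. That feature was picked after the sequence was seen. Sequences were at hand for 6 of the 8 members.

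Total counts lay between 36981476 and 38126521 per library. A gene with 0 counts could have had up to 3, or 0.0766 to 0.0871 CPM (counts scaled by TMM library size), by counting error alone. The replicate Ctrl 2 stood apart: its counts differed from those of the other Ctrl libraries by a chi-square per degree of freedom of 58.0 and 47.4, against 5.87 to 14.5 between the other pairs of the same group. T cell markers were abundant, with Cd4 at 496 CPM in Sora and 476 CPM in Ctrl libraries, and Il9 averaged 266 ± 15.4 CPM in Sora and 192 ± 18.8 CPM in Ctrl libraries (SD, n = 3 each). Of the 7 T cell markers tested, of 10 listed, 4 fell, Cd3e, Cd3g, Cd247 and Cd28, and 3 were not called. Of all tested genes 9.43% fell. The summed level of the T cell list was 1528 to 1615 CPM in Sora and 1812 to 1842 CPM in Ctrl libraries. By edgeR the Cd3e call was lost without any 1 Sora library or Ctrl replicate 3 (adjusted p = 0.051 to 0.0793) and with total counts only (0.0892). By limma-trend it was also lost on the FPKM settings (0.0925 to 0.203). The Cd247 call was lost by edgeR without Sora replicate 3 (0.0657) and by limma-trend on unfiltered FPKM (0.0602).

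Slamf6 encodes Ly108, a receptor that binds itself and is found on T, B and natural killer cells. Its level was 4.70, 4.45 and 3.73 FPKM (fragments per kilobase of gene, scaled by library size) in Sora libraries, against 1.2, 1.08 and 1.11 FPKM in Ctrl libraries. All Sora libraries lay above all Ctrl libraries, and the 3 Ctrl values were close together. The log2 fold change, Sora minus Ctrl, was 1.85 ± 0.13 SE (adjusted p = 1.27e-05). Cd84 encodes a self-binding receptor of T cells, B cells and myeloid cells. It had 4.61, 4.60 and 4.32 FPKM in Sora libraries, against 3.55, 2.73 and 3.34 FPKM in Ctrl libraries. The groups did not overlap, and Ctrl 2 was the lowest library. The log2 fold change of Cd84 was 0.42 ± 0.09 SE (adjusted p = 0.00939). This call was lost without Sora replicate 1 (adjusted p = 0.0532) and on unfiltered FPKM (adjusted p = 0.0591).

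Slamf7 encodes CRACC, a self-binding receptor that signals through the SAP-like adaptor EAT-2 in natural killer cells and is also found on activated lymphocytes. It had 12.4, 15.2 and 13.5 FPKM in Sora libraries, against 40.1, 32.6 and 39.4 FPKM in Ctrl libraries. Every Sora library was lower than every Ctrl library, and Ctrl 2 was the lowest of its group. The log2 fold change was -1.52 ± 0.09 SE (adjusted p = 4.69e-06). Slamf1 encodes CD150, the founding self-binding SLAM receptor, which rises on T cells when they are activated and serves as a measles virus receptor in humans. It had 11.4, 13.6 and 12.3 FPKM in Sora libraries, against 19.2, 17.2 and 19.4 FPKM in Ctrl libraries, again without overlap. The log2 fold change was -0.66 ± 0.08 SE (adjusted p = 0.000359).

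**Figure D1:**
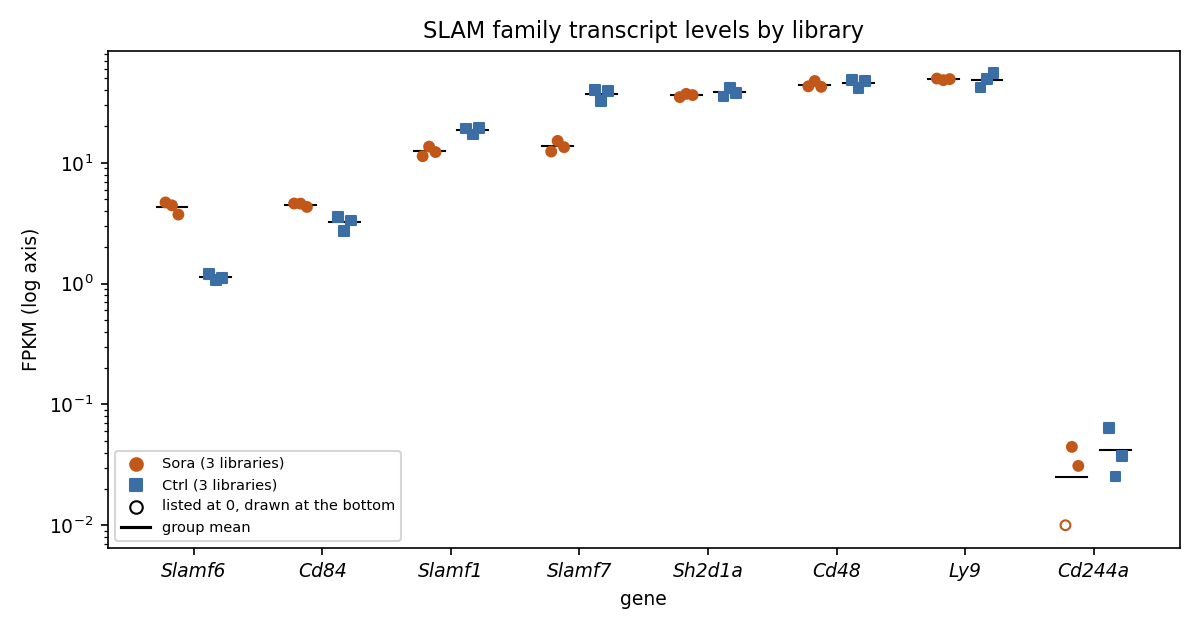
FPKM of the 8 SLAM family genes in each library on a log axis, Sora libraries as circles left of Ctrl libraries as squares, with a line at each group mean and an open circle at the bottom for the library listed at 0. Slamf6 and Cd84 lie higher and Slamf1 and Slamf7 lower in every Sora library than in every Ctrl library, the points of Sh2d1a, Cd48 and Ly9 overlap, and Cd244a lies at or under 0.0639 FPKM throughout.

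Ly9 encodes CD229, a self-binding receptor of T and B cells. It had 49.9, 48.4 and 49.4 FPKM in Sora libraries, against 42.0, 49.2 and 55.1 FPKM in Ctrl libraries. The Sora values fell inside the range of the Ctrl values. The log2 fold change was -0.07, with a 95% interval of -0.29 to 0.16 (adjusted p = 0.707), and its sign turned with total counts only, on FPKM and without Ctrl replicate 3. Cd48 encodes a lipid-anchored receptor that binds CD2 and CD244. It had 43.0, 47.6 and 42.6 FPKM in Sora libraries, against 48.2, 42.0 and 47.5 FPKM in Ctrl libraries, and the groups overlapped. Its log2 fold change was -0.12, with a 95% interval of -0.28 to 0.04 (adjusted p = 0.28). Cd244a, whose product is the CD48 receptor of natural killer and cytotoxic cells, had 0, 7 and 5 counts in Sora libraries, against 10, 4 and 6 counts in Ctrl libraries. It was too low to be tested, and a difference was not detectable at this depth. Sh2d1a had 35.0, 37.2 and 36.4 FPKM in Sora libraries, against 35.4, 41.4 and 38.0 FPKM in Ctrl libraries. These values overlapped, and the log2 fold change was -0.16, with a 95% interval of -0.37 to 0.05 (adjusted p = 0.294). The intervals of Ly9, Cd48 and Sh2d1a bound how large a change could be and do not show that the levels were equal.

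**Figure D2:**
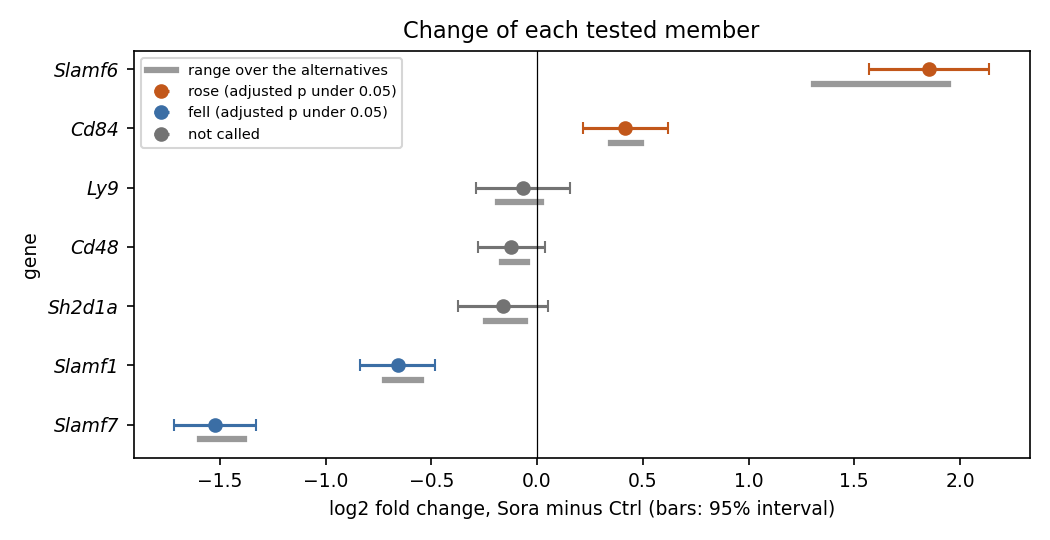
Log2 fold change, Sora minus Ctrl, of the 7 tested members as points with 95% intervals, with a grey bar under each for its range over the 17 alternative analyses. Slamf6 at 1.85 and Cd84 at 0.42 stand above 0, Slamf1 at -0.66 and Slamf7 at -1.52 stand under 0, and the intervals of Ly9, Cd48 and Sh2d1a span 0.

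Because FPKM are scaled by gene length, the members can be ranked within a group. Over all 6 libraries the mean FPKM of Ly9 lay at percentile 91.0 of the tested genes, that of Cd48 at 90.3, Sh2d1a at 87.9, Slamf7 at 82.3, Slamf1 at 72.9, Cd84 at 43.4 and Slamf6 at 37.4. In Sora libraries the order of mean FPKM was Ly9, Cd48, Sh2d1a, Slamf7, Slamf1, Cd84, Slamf6 and Cd244a, and the libraries of Slamf7 and Slamf1 overlapped, as did those of Cd84 and Slamf6. In Ctrl libraries the order of means was the same, but there Ly9 overlapped Cd48 and Sh2d1a overlapped Slamf7. Slamf7 lay above Slamf1 in every library, by less in Sora libraries: the ratio of Slamf7 to Slamf1 FPKM within a library was 1.09, 1.11 and 1.10 in Sora libraries, against 2.09, 1.90 and 2.03 in Ctrl libraries. The ratio of Slamf6 to Cd84 FPKM was 1.02, 0.967 and 0.865 in Sora libraries, against 0.337, 0.393 and 0.332 in Ctrl libraries. The ratio of Slamf7 to Slamf6 FPKM was 2.64, 3.42 and 3.61 in Sora libraries, against 33.6, 30.3 and 35.6 in Ctrl libraries. Ratios within a library do not depend on how libraries are scaled, and no test was made on them.

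The FPKM of the 7 receptor genes summed to 126, 134 and 126 in Sora libraries, against 154, 145 and 166 in Ctrl libraries. The sum was lower in each Sora library than in each Ctrl library. Slamf7 made up 10.6 ± 0.753% of it in Sora and 24.1 ± 1.77% in Ctrl libraries (SD, n = 3 each), and Slamf6 made up 3.34 ± 0.384% in Sora and 0.729 ± 0.0549% in Ctrl libraries. Ly9 held 38.3 ± 1.91% in Sora and 31.5 ± 3.71% in Ctrl libraries, and Cd48 held 34.5 ± 0.91% in Sora and 29.6 ± 1.39% in Ctrl libraries, although neither passed the gene test. Slamf6 therefore remained a minor receptor transcript in both groups despite having the largest fold change of the family, and the largest change in FPKM was that of Slamf7. These shares are of transcript and are a description without a test. In RNA from a whole culture, fewer cells of a type and less RNA per cell cannot be told apart.

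**Figure D3:**
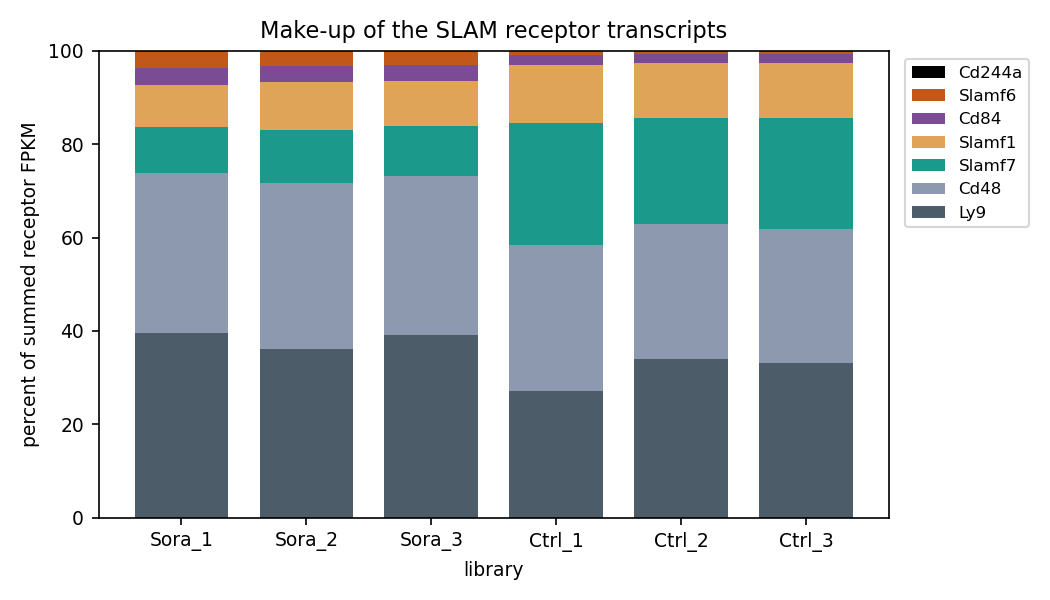
Percent of the summed FPKM of the 7 SLAM receptor genes held by each gene, stacked in 1 bar per library, Sora libraries left of Ctrl libraries. The Slamf7 band is 9.85 to 11.3% in Sora and 22.5 to 26.0% in Ctrl libraries, and the Slamf6 band is 2.97 to 3.73% in Sora and 0.668 to 0.775% in Ctrl libraries.

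Position in the cluster was compared with the response. In RefSeq gene order the receptor genes run Cd244a, Ly9, Slamf7, Cd48, Slamf1, Cd84 and Slamf6, with Tma7-ps between Cd48 and Slamf1. The 2 genes that rose, Cd84 and Slamf6, lie next to each other at 1 end, while the 2 that fell, Slamf7 and Slamf1, are separated by Cd48 and Tma7-ps, which were not called. Of the 10 protein-coding genes on each side of the cluster 15 were tested, of which 14 were not called, with a median log2 fold change of 0.02 against -0.01 over all tested genes. The tested genes nearest to Slamf6 on its outer side, Vangl2 and Ncstn, had log2 fold changes of 0.30 and -0.14 (adjusted p = 0.69 and 0.203). Sh2d1a lies on the X chromosome. Of the 9 tested genes around it, 1 rose and 3 fell: Gria3, a glutamate receptor subunit gene, was 1.90-fold higher (adjusted p = 0.0154), while Thoc2, of the mRNA export complex, was 1.35-fold lower (adjusted p = 0.0182), Apln, which encodes the peptide apelin, 1.25-fold lower (adjusted p = 0.0257), and the aminopeptidase gene Xpnpep2 2.73-fold lower (adjusted p = 0.00928). The Xpnpep2 call held with every library left out, while that of Gria3 was lost without Sora replicate 2 or 3 or Ctrl replicate 3 (adjusted p = 0.0614 to 0.0729), that of Apln without any 1 Sora library or Ctrl replicate 1 (0.0699 to 0.111), and that of Thoc2 without any 1 library but Ctrl replicate 2 (0.0551 to 0.0992). The calls over both sets together numbered 8 without Ctrl replicate 2 and 1 to 2 without any other single library. Over all genes tested with every library in, 17.9% were called.

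**Figure D4:**
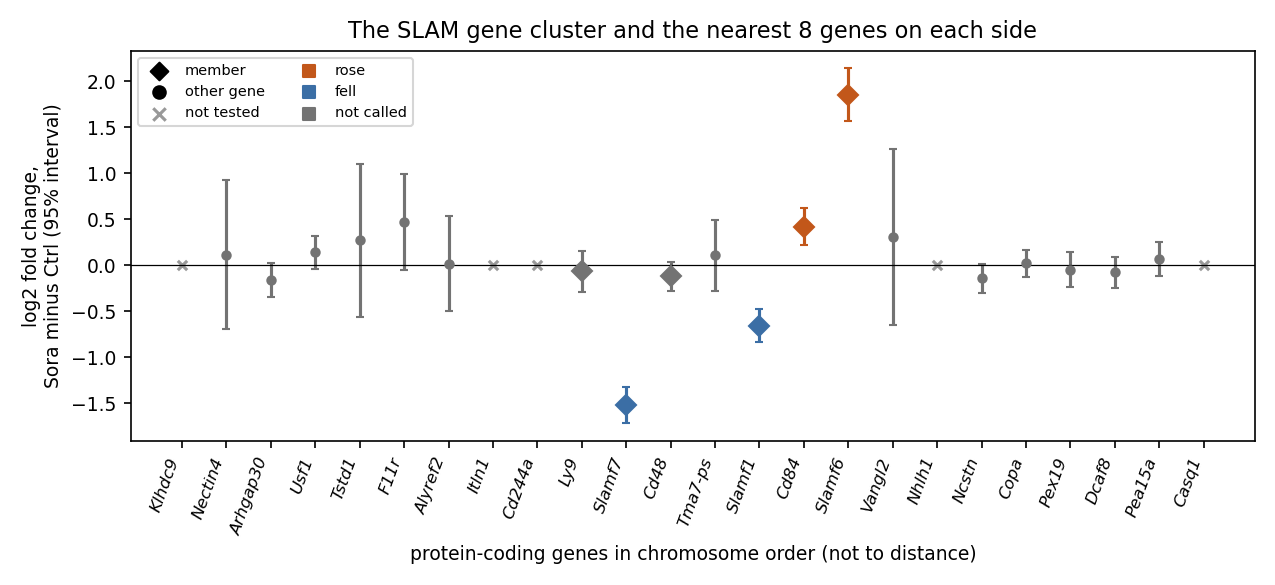
Log2 fold change, Sora minus Ctrl, with 95% intervals, for the SLAM receptor genes as diamonds and for Tma7-ps and the nearest 8 genes on each side as circles, in chromosome order and not to distance; grey crosses at 0 are genes that were not tested. Slamf7 and Slamf1 stand under 0 and Cd84 and Slamf6 above it, while the intervals of the tested genes around them span 0.

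Among proteins that act with the SLAM receptors, CD2 is the other partner of CD48. Cd2 fell 1.5-fold, to 301 ± 11.2 CPM in Sora libraries, against 452 ± 17.1 CPM in Ctrl libraries (adjusted p = 0.000359), while Cd48 itself was not called. The other 3 genes of the CD2 list were not called. Cd2ap, whose product links CD2 to the cytoskeleton, had 45.4 ± 2.74 CPM in Sora and 53.1 ± 2.90 CPM in Ctrl libraries (adjusted p = 0.0756), and it was called, as lower, without Ctrl replicate 2 (adjusted p = 0.00522). Cd2bp2, which encodes a protein that binds the CD2 tail, had 105 ± 0.717 CPM in Sora and 101 ± 9.86 CPM in Ctrl libraries (adjusted p = 0.661). Pstpip1, another CD2 tail binder, had 158 ± 9.41 CPM in Sora and 174 ± 7.25 CPM in Ctrl libraries (adjusted p = 0.203). Of the further SLAM-like genes, Slamf9 had 0 to 1 counts in Sora and 1 to 2 counts in Ctrl libraries. Sh2d1b1, which encodes EAT-2, the adaptor that Slamf7 uses in natural killer cells, had 1 count in Sora replicate 2 and 0 in each of the other 5 libraries. Slamf8 and Sh2d1b2 were not analysed here.

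Of 19 genes for kinases, phosphatases and adaptors that work downstream of SLAM receptors or SAP, 3 rose, 4 fell and 12 were not called, with a median log2 fold change of 0.02, where 17.9% of all tested genes were called. The split by direction turned with the scaling, to 5 higher and 1 lower with total counts only, 5 and 2 with upper-quartile factors, and 4 and 1 on filtered log2(FPKM + 1). Ptpn6, which encodes SHP-1, a phosphatase known to bind SLAM receptor tails, rose 1.43-fold, to 222 ± 6.47 CPM in Sora libraries, against 155 ± 5.54 CPM in Ctrl libraries (adjusted p = 0.000437). Csk, which encodes the kinase that restrains the Src family, rose 1.21-fold (adjusted p = 0.0122). Lyn, a Src family kinase gene of B and myeloid cells, rose 2.88-fold at a low level, with 42, 55 and 70 counts in Sora libraries, against 14, 21 and 19 counts in Ctrl libraries (adjusted p = 0.013). Dok2, which encodes an inhibitory adaptor, fell 1.35-fold (adjusted p = 0.00793). Malt1 and Prkcq, of the route from protein kinase C to NF-kappaB, fell 1.37-fold and 1.18-fold (adjusted p = 0.0174 and 0.0413), and Lck, the kinase gene of T cell receptor signalling, fell 1.19-fold (adjusted p = 0.0451). Fyn, the kinase that SAP recruits, had 140 ± 8.64 CPM in Sora and 121 ± 5.17 CPM in Ctrl libraries (adjusted p = 0.0783), and Fyn was named for its role outside the naming rule. Of these calls that of Ptpn6 alone was made in all 17 alternatives. Those of Csk and Dok2 were lost without Sora replicate 1 or 3 (adjusted p = 0.0509 to 0.08), that of Lyn without Sora replicate 3 (0.0862), that of Malt1 without Sora replicate 1 or 3 or Ctrl replicate 3 (0.0698 to 0.107), that of Lck without any 1 Sora library or Ctrl replicate 3 (0.12 to 0.195), and that of Prkcq without any 1 library but Ctrl replicate 2 (0.054 to 0.185). For the whole list the count of calls was 2 without Sora replicate 1, 1 without Sora replicate 3, 4 without Ctrl replicate 3 and 11 without Ctrl replicate 2.

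Of 8 genes tied to helper functions that need SAP, 3 fell and 5 were not called, where 9.43% of all tested genes fell and 17.9% were called. Their median log2 fold change was -0.35 against -0.01 over all tested genes. By edgeR's test Maf, a transcription factor gene of interleukin 4 and interleukin 21 expression, fell 1.86-fold, to 173 ± 15.1 CPM in Sora libraries, against 321 ± 41.9 CPM in Ctrl libraries (adjusted p = 0.000269). Il21, whose product acts on germinal centre B cells, fell 1.52-fold, to 146 ± 6.66 CPM in Sora libraries, against 221 ± 12 CPM in Ctrl libraries (adjusted p = 0.000308). Icos, a costimulatory receptor gene, fell 1.28-fold (adjusted p = 0.02), a call lost without any 1 Sora library (adjusted p = 0.0561 to 0.103), without Ctrl replicate 3 (adjusted p = 0.0516) and on unfiltered FPKM (adjusted p = 0.0827). The 5 that were not called were Bcl6, Cxcr5, Pdcd1, Il4 and Zbtb16. Bcl6, Cxcr5 and Pdcd1 had log2 fold changes above 0, of 0.32, 0.30 and 0.27 (edgeR adjusted p = 0.25, 0.185 and 0.121). Those of Il4 and Zbtb16 were under 0, at -0.35 and -0.53 (edgeR adjusted p = 0.169 and 0.324).

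**Figure D5:**
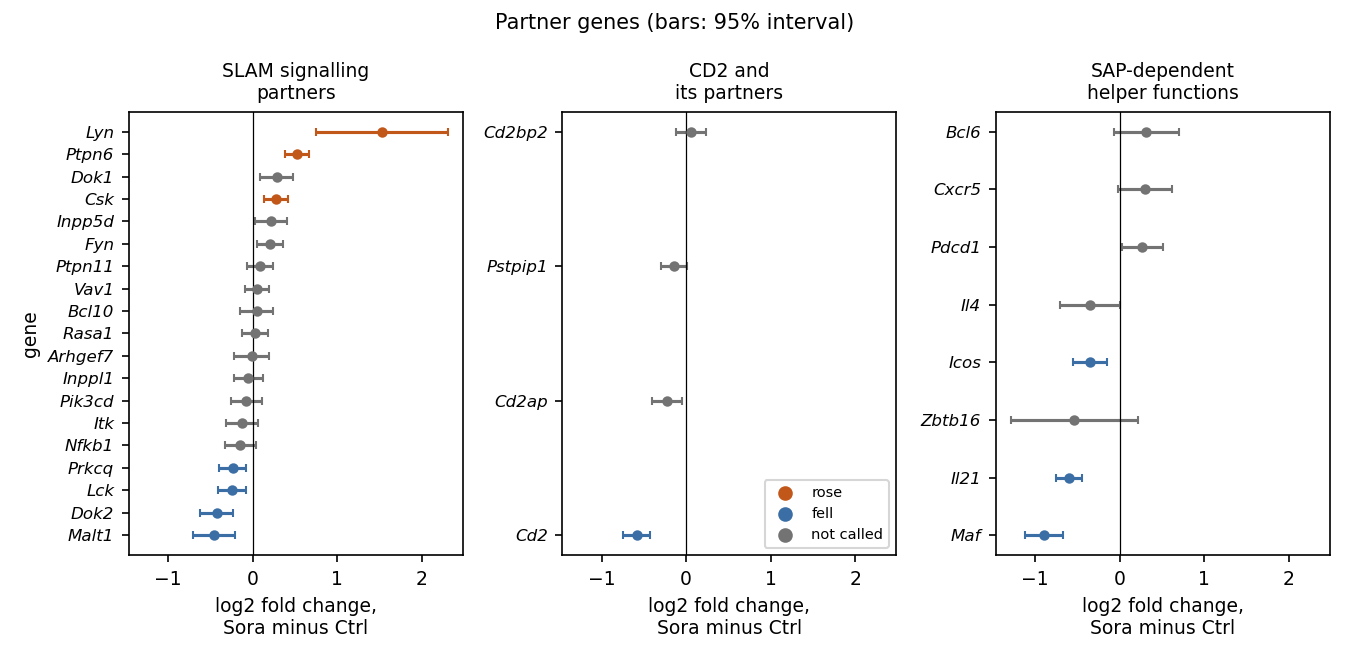
Log2 fold change, Sora minus Ctrl, with 95% intervals, of the SLAM signalling partners, CD2 and its partners, and genes of helper functions that need SAP. Lyn, Ptpn6 and Csk were called higher, and Prkcq, Lck, Dok2, Malt1, Cd2, Icos, Il21 and Maf lower.

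Several SLAM receptors are also made by other blood cells, so markers of those cells are given beside the changes. Of 6 tested B cell markers 5 rose and 1 fell, where 8.51% of all tested genes rose and 9.43% fell. The summed level of the 8 listed was 34.8 to 37.3 CPM in Sora and 27.2 to 34.3 CPM in Ctrl libraries. That sum includes Ebf1, the 1 that fell, at 5.72 ± 0.897 CPM in Sora and 19.6 ± 0.946 CPM in Ctrl libraries. It therefore hides the rise of the other 5. Cd79b was 2.37-fold, Cd79a 2.38-fold, Pax5 4.14-fold and Cd22 3.31-fold higher, while Ebf1 was 3.43-fold lower, and Ms4a1, which encodes CD20, had 1 to 2 counts in Sora and 0 to 1 counts in Ctrl libraries. Cd79b itself had 13.9 ± 1.22 CPM in Sora and 5.88 ± 1.96 CPM in Ctrl libraries, when Slamf6 had 14.5 ± 1.73 CPM in Sora and 4.0 ± 0.123 CPM in Ctrl libraries. The Cd79a call was lost without any 1 library other than Ctrl replicate 2 (adjusted p = 0.0525 to 0.105). Of the 4 natural killer markers in the tables Klrd1 alone was tested and was not called, and Klrb1c and Klra4 had 0 to 1 counts; the list summed to 1.58 to 2.43 CPM in Sora and 1.57 to 1.97 CPM in Ctrl libraries. Of 3 tested myeloid markers edgeR called 0, and 1, Adgre1, had an unadjusted p under 0.05 (0.0317), with Csf1r at 0 to 2 counts in Sora and 0 in Ctrl libraries and the 8 in the tables, of 9 listed, summing to 7.20 to 8.83 CPM in Sora and 5.98 to 8.89 CPM in Ctrl libraries. In the mast cell list, Kit was the 1 tested gene and was not called, Mcpt4 and Mcpt8 had 0 to 1 counts, and the list summed to 18.2 to 19.4 CPM in Sora and 16.7 to 18.0 CPM in Ctrl libraries. The neutrophil list summed to 0.204 to 0.567 CPM in Sora and 3.63 to 3.70 CPM in Ctrl libraries through Ly6g. By edgeR Ly6g was called lower (adjusted p = 1.14e-05), with 1, 2 and 0 counts in Sora and 125, 120 and 125 counts in Ctrl libraries. Mpo, the other neutrophil marker tested, was not called (adjusted p = 0.802), and Elane had 0 to 1 counts. The CD8 list summed to 8.89 to 11.1 CPM in Sora and 6.17 to 7.09 CPM in Ctrl libraries through Cd8b1. The Cd8b1 call was lost without Sora replicate 1 (adjusted p = 0.0779). Cd8a was not called (adjusted p = 0.863), at 0.429 ± 0.0705 CPM in Sora and 0.383 ± 0.215 CPM in Ctrl libraries. The part of such cells in the changes of the SLAM genes was not tested.

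For each called member, the 3 genes with the most similar profile over the 6 libraries were found among the 8767 genes whose log2 CPM averaged 3 or more. Likeness was the root mean square difference between log2 CPM values centred on each gene's mean, so genes of similar fold change come first. For Slamf6 they were Tmem176a, Serpina3g and Zfp365, with differences of 0.14, 0.19 and 0.22. For Slamf7 they were the lipase gene Mgll, the cytokine gene Tgfb3 and the transglutaminase gene Tgm2, with differences of 0.05, 0.07 and 0.09. For Slamf1 they were Gpr146, Cnp and the hypoxia-responsive hormone gene Adm, with differences of 0.04, 0.04 and 0.05. For Cd84 they were Abcc5, Abr and Dffb, with differences of 0.03 each. The nearest genes of Slamf6 were farther from it than those of the other called members. Slamf6 itself averaged a log2 CPM of 2.94, under the level searched, so genes at its own level were left out. Its distances therefore cannot be compared on equal terms with those of the other members. With 6 libraries in 2 groups such likeness is a description.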

How the data were processed

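RNA was measured in 3 Sora and 3 Ctrl libraries, grouped by title. Per the labels' protocols, libraries were made from TRIzol-extracted total RNA with a VAHTS Universal V5 kit. The authors deposited raw gene counts and FPKM; the submitters' processing notes name fastp, HISAT2, HTSeq, R 3.2.0, DESeq2 and GRCm39. The annotation, strand setting and treatment of shared reads are not stated there, so overlapping genes and close paralogs are uncertain. Each FPKM value the authors deposited is the count divided by gene length and library total.

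Genes kept by filterByExpr (13255) were TMM-scaled and tested with edgeR 4.0.16 (quasi-likelihood, robust, group only, 4 residual degrees of freedom) in R 4.3.3. Benjamini-Hochberg adjustment ran across every gene tested, with a threshold of 0.05. CPM are TMM-scaled. Standard errors come from the F statistic. The test was tested on simulated data. Same-numbered Sora and Ctrl libraries deviated together with correlations of -0.06, 0.15 and 0.10, against -0.178 to 0.0982 for libraries of unlike number. With 3 libraries in each group these values cannot show whether samples were paired. The labels name no pairs, and none were used in the main test. The members and lists were chosen with earlier results of these data known. Named genes are all members, the CD2 and further SLAM lists, up to 4 called genes per direction of each other list, up to 3 called neighbours per direction, and the 3 most similar genes of each called member. RefSeq (GRCm38.p6) gave gene order and promoter sequences only. Alternatives were other scalings and filters, leaving out single libraries, a replicate block, DESeq2 1.42.0, and limma 3.58.1 as limma-voom and limma-trend on log2(FPKM + 1) and log2(FPKM + 0.1). Some genes of the marker and neighbour sets are counted in their sets but not reported here by name.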

Additional observations from a re-analysis of the deposited data

How the results depend on the processing

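Over the 7 tested members and 17 alternatives, 112 of 119 results kept their direction and their side of the threshold, and Slamf1, Slamf6 and Slamf7 did so in all 17. Cd84 was not called on unfiltered log2(FPKM + 1) (log2 fold change 0.39, adjusted p = 0.0591) or without Sora replicate 1 (adjusted p = 0.0532), and over the left-out libraries its log2 fold change ranged from 0.35 to 0.47. Ly9, never called, changed sign with total counts only (0.012), on log2(FPKM + 1) filtered (0.020) or unfiltered (0.020), on log2(FPKM + 0.1) (0.021) and without Ctrl replicate 3 (0.021), and over the left-out libraries it ranged from -0.19 to 0.021. The members called numbered 3 to 4. Over all genes, 2378 were called, 1423 on unfiltered FPKM and 1243 to 4325 with a library left out; total counts only called 1496 higher and 826 lower, against 1128 and 1250. The replicate block called 2139 genes, the same 4 members, 5 signalling partners, 4 neighbours, 1 CD2 gene and 3 SAP-linked genes; the Lck (adjusted p = 0.104), Prkcq (0.0782) and Dffb (0.0576) calls were lost under it. The 7 calls among signalling partners became 4 on log2(FPKM + 0.1), 3 on unfiltered FPKM and 1 to 11 with a library left out, and the 1 call among CD2 genes 1 to 2. The 5 calls among neighbours became 3 with total counts only, 1 on each FPKM setting and 1 to 8 with a library left out. Of 716 results for 43 other named genes, 105 lost the call, 1 gained one and 0 changed sign. Shares of summed FPKM are within a library and cannot change with its scaling. Unless stated, the cause of a change was not tested.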
